A study of Mus musculus with 11 samples.

Results

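The Hes, Hey and Id genes code for helix-loop-helix proteins that hold back the transcription programmes of differentiation. The genes were listed by family name, with earlier results of these data known. All 10 (Hes1, Hes5, Hes6, Hey1, Hey2, Heyl, Id1, Id2, Id3 and Id4) were found among the 53453 gene rows of the deposited expression table. RNA sequencing gave their transcript levels in primary neurospheres, floating cultures grown from neural stem and progenitor cells. The cells came from mouse embryonic brain at E15.5 (days after conception). The control group held 6 libraries from embryos labelled as untreated, and the other group held 5 libraries from embryos with Klf5 overexpression. The sources used here do not give the strain, the promoter or vector behind the overexpression, or the cells it reached. The protocol counts as many embryos as libraries, so each library was taken as a separate embryo.

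Hes and Hey proteins bind DNA, and Hes proteins recruit co-repressors of the Groucho (Tle) family. Most Hes and Hey genes are switched on when a cleaved Notch receptor joins the DNA-binding protein Rbpj. In neural progenitors their proteins keep proneural activators in check. Id proteins have no DNA-binding region of their own: they pair with E proteins and so keep proneural activators from finding a partner, and signalling by bone morphogenetic proteins (BMPs) through Smad proteins is a main inducer of their genes. Hes6 is an exception among the Hes genes, since it is known to counter Hes1 and to act in favour of neuronal differentiation. Klf5, the gene that was overexpressed, codes for a zinc finger factor of a family that binds GC-rich boxes.

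The promoters show which of these genes carry the letters that Rbpj reads close to their start. RefSeq promoters (GRCm38.p6) were matched for 6 of the 10 genes, Hes5, Hes6, Hey2, Id2, Id3 and Id4. The 250 bases before the RefSeq start were searched on both strands. The Rbpj letters GTGGGAA were in 5.42% of 32851 promoters of that length, and 0.161% held them more than once. The Hes5 and Hey2 promoters held them, and the windows of Hes6, Id2, Id3 and Id4 did not. The windows of Id2 and Id3, and that of the second of the 2 Hes6 promoters, lie inside the gene coordinates given below. That of Id3 was exonic throughout, and the longest stretch without an exon in that of Id2 was 89 bases. For Id3 the search therefore covered no sequence outside exons. The promoters of Hes5 and Hey2 are printed for their matches, in capitals in either direction. The first Hes6 promoter is printed as that of the Hes gene without a match. Each runs 5′ to 3′ on the strand of its gene, and exonic bases were left out.
Hes5, chr4:154960673-154960922, plus strand: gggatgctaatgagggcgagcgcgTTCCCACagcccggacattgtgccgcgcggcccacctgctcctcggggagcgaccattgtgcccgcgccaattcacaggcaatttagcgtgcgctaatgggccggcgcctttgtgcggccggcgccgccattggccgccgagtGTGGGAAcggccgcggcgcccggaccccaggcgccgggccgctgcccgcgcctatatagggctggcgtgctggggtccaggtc
Hey2, chr10:30842802-30843033, minus strand: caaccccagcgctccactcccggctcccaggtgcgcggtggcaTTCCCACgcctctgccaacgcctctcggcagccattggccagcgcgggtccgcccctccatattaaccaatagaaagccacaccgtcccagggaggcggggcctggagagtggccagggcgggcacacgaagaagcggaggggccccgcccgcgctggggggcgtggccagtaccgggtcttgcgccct
Hes6, chr1:91414039-91414288, minus strand: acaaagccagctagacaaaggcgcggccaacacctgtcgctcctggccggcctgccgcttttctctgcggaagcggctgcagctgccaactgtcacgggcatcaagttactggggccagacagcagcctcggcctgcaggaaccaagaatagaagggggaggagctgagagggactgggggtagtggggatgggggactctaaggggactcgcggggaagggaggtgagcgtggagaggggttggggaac
In Hes5 the matches began 226 and 83 bases before the gene's start, the farther one on the opposite strand. In Hey2 the match began 207 bases before the RefSeq start, which lies inside the gene coordinates given below. The GC box letters GGGNGNGG were common, in 45.9% of promoters. Id4 held 5 of them, Hey2 3, Id3 2 and Id2 1, each of the 2 Hes6 promoters held 1, and Hes5 had none in this window. The matches of Id3 were in exonic bases, and that of Id2 was outside its 89 bases without an exon. The N box letters CACNAG, a sequence bound by Hes proteins, were in 36.7% of promoters and had 1 match each in Id4 and in the second Hes6 promoter. A match of this kind is a run of letters and does not show binding.

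The libraries carried the labelled overexpression. Klf5 was at 0.849 ± 0.297 TPM (a length-corrected share of a library, scaled so that all transcripts add up to 1000000; SD, n = 6) in control and at 75.8 ± 18.5 TPM (SD, n = 5) with overexpression. The smallest overexpression value, 53.6 TPM in replicate 5, was far above the highest control value of 1.29 TPM. Markers of neural stem and progenitor cells were abundant: all 9 exceeded a mean of 1 TPM, and their summed level was 4658 to 7709 TPM in control and 3669 to 5678 TPM with overexpression. The highest single value of a gene in this list was 5405 TPM, so in that library 1 gene made up most of the sum. Oligodendrocyte lineage markers summed to 1645 to 2844 and 1693 to 2065 TPM. Of these 8 markers, 6 had a mean of at least 1 TPM, and the highest single value of a gene was 1923 TPM. Neuron markers summed to 353 to 509 and 313 to 420 TPM, astrocyte markers to 196 to 253 and 154 to 255 TPM, and choroid plexus and ependymal markers to 19.3 to 27.3 and 14.5 to 31.9 TPM with Ttr at 0 throughout. All 10 endothelial markers stayed below 1 TPM in every library. Of 10 microglia and macrophage markers, Aif1, Cx3cr1, C1qa, C1qb and Tyrobp were at 0 throughout. The ranges of these sums overlap between the groups, although single markers within them changed. The listed rows summed to 814208 to 846780 TPM per control library and 730832 to 821967 TPM per overexpression library, and the sequencing depth behind them is unknown.

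Before any comparison, the 10 genes fell into clear tiers of abundance. TPM divides by transcript length, so levels can be set beside each other between genes. In control neurospheres Hes5 was highest at 125 ± 39.7 TPM (SD, n = 6), followed by Hes6 at 100.02 ± 13.3, Id3 at 81.4 ± 12.2, Hes1 at 37.3 ± 6.33, Id2 at 34.6 ± 7.38, Id1 at 23.3 ± 8.44, Hey1 at 20.6 ± 4.06 and Id4 at 5.51 ± 3.14 TPM. Heyl at 0.377 ± 0.507 TPM and Hey2 at 0.125 ± 0.154 TPM came last. Between neighbours in this order the ranges over libraries were apart only from Id3 to Hes1, from Hey1 to Id4 and from Id4 to Heyl. With Klf5 overexpression the order was Hes6, Hes5, Hes1, Id3, Id2, Id1, Hey1, Id4, Heyl and Hey2, and only Id2 and Id1 had neighbouring ranges that did not overlap. So Hes5 and Hes6 stood in the opposite order in the groups' means, as did Id3 and Hes1, although in both groups Hes5 and Hes6 overlapped.

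**Figure D1:**
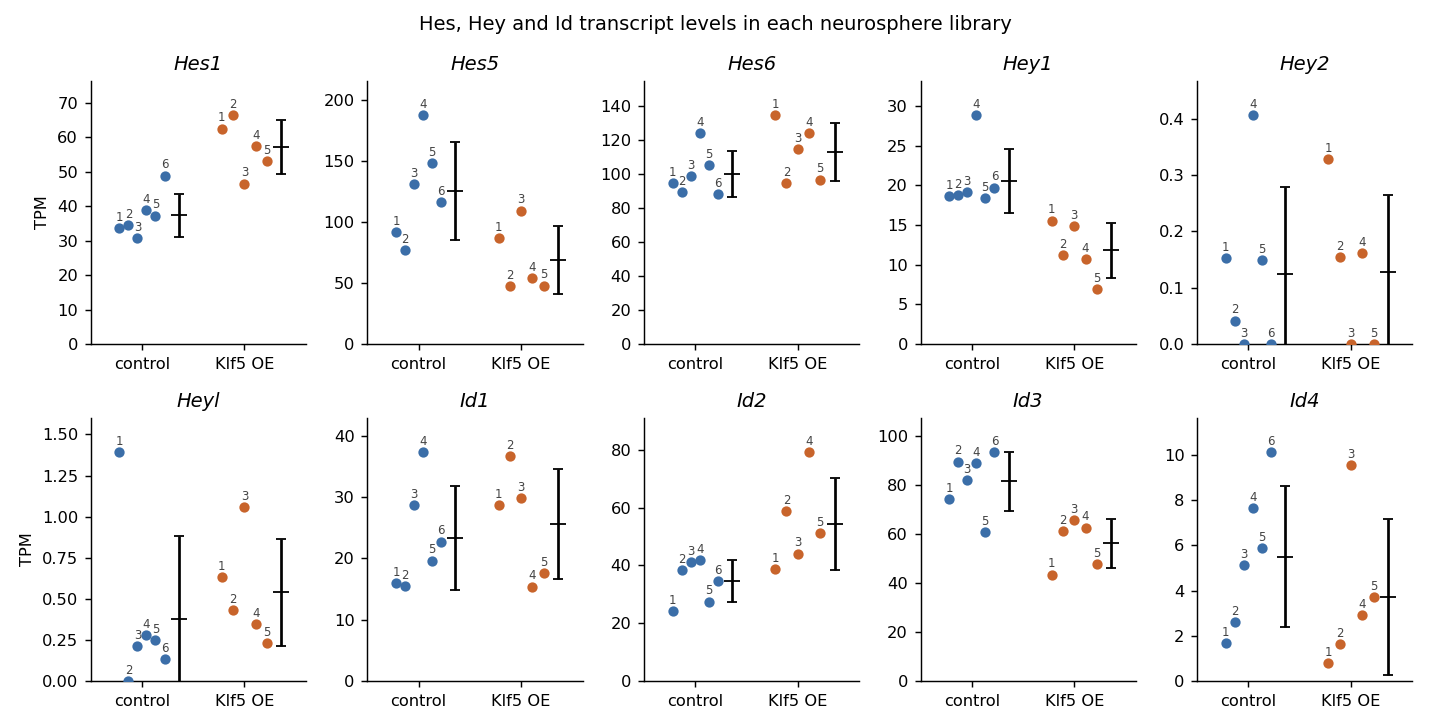
Level in TPM (vertical axes, starting at 0, each with its own scale) of the 10 genes in the 6 control and 5 Klf5 overexpression libraries; points are libraries, and the bar and whiskers are the mean and SD. Hey1 is the gene whose groups do not overlap, and Hes1, Hes5, Id2 and Id3 shift with some overlap.

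The members that differed between Klf5 overexpression and control did not move together: Hes1 rose, while Hey1 and Id3 fell. These 3 of the 8 testable members passed an adjusted p of 0.05 in limma on log2(TPM + 1), a moderated test with Benjamini-Hochberg adjustment over 13549 genes, of which 3.72% passed (2.29% higher and 1.43% lower). The other 5 tested members did not pass, and Hey2 and Heyl did not reach 1 TPM in 5 libraries, the minimum for testing. Of the 8 tested members, 4 had a change above 0 and 4 below it, with a median log2 change of -0.20, against -0.04 over all genes tested. The members were chosen with earlier results of these data known, so setting them beside all genes is a description only. In bulk RNA a fall in a transcript from fewer cells of a type and one from less RNA per cell cannot be told apart, which holds for every value that follows.

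By the same test, which 3.72% of all genes tested passed, single markers of the cell types changed. Of 9 neural stem and progenitor markers, all tested, Vim rose (1075 to 1572 TPM) and Slc1a3 (152 to 90.8 TPM) and Msi1 (26.998 to 17.4 TPM) fell. In that list 2 markers had a change above 0 and 7 below it. Of 7 tested astrocyte markers, S100b (0.956 to 8.42 TPM) and Cd44 (13.0 to 39.8 TPM) rose and Aldh1l1 (62.6 to 15.8 TPM) fell. Among the 7, 3 had a change above 0 and 4 below it. Of 6 tested oligodendrocyte lineage markers Cspg4 rose (45.7 to 123 TPM), while the other 5 had a change below 0 and did not pass. The median log2 change of these 6 was -0.22. Of 3 tested choroid plexus and ependymal markers Aqp1 rose (0.242 to 2.84 TPM). Testing needed 1 TPM in 5 libraries, which Aqp1 met mostly through the overexpression libraries. A fall of a gene so low in control would not have been tested, so its rise is a description only. S100b, at 0.956 TPM in control, was also near this minimum. None of the 9 tested neuron markers passed in limma (4 had an unadjusted p under 0.05). These markers were named because they passed, and their part in the changes of the Hes, Hey and Id genes was not tested.

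**Figure D2:**
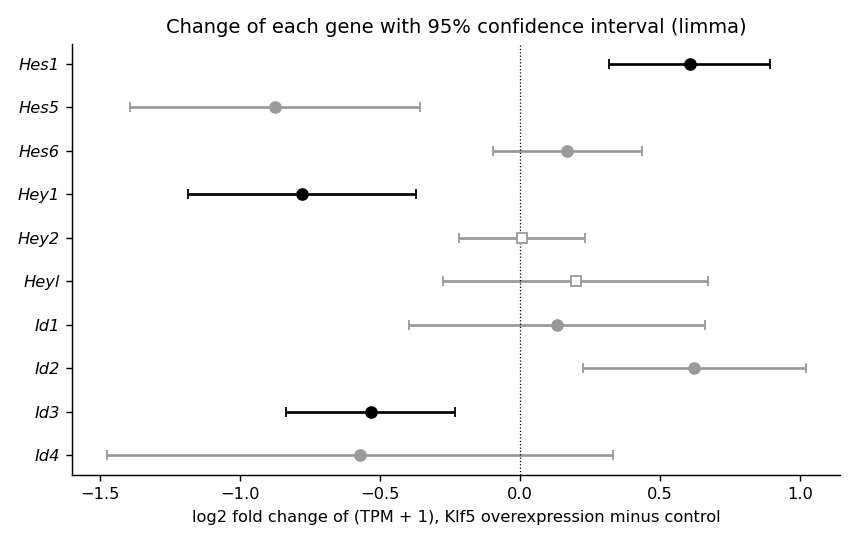
Change of log2(TPM + 1) from control to Klf5 overexpression (horizontal axis) for each gene, with its 95% confidence interval; black marks an adjusted p under 0.05, grey the rest, and the open squares of Hey2 and Heyl come from the fit without a filter on low values. Hes1 lies to the right of 0, and Hey1 and Id3 to the left.

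Hes1 (ENSMUSG00000022528, chr16:30064384-30067796, plus strand, GRCm38) is the Hes gene that responds to Notch in most tissues and keeps neural progenitors from differentiating early. Its control libraries ran from 30.7 TPM through a median of 35.9 to 48.9 TPM, and the overexpression libraries 1 to 5 held 62.5, 66.3, 46.6, 57.4 and 53.1 TPM. All 5 lay above the control mean and 4 above every control library. The exception was overexpression replicate 3, which was below control replicate 6. The means were 37.3 ± 6.33 TPM (SD, n = 6) and 57.2 ± 7.77 TPM (SD, n = 5), a ratio of 1.53. The log2 change was 0.61 ± 0.14 (SE), with a 95% confidence interval from 0.32 to 0.89, an adjusted p of 0.017 in limma and an exact permutation p of 0.00649 (two-sided, as all those given here). Without overexpression replicate 2 the adjusted p in limma was 0.055, and without overexpression replicates 2 and 5 it was 0.0823.

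Hes5 (ENSMUSG00000048001, chr4:154960923-154962371, plus strand), the Hes gene most closely tied to Notch signalling in neural stem cells, had lower values in the overexpression group, and this did not pass the test. In control it ran from 77.2 through a median of 123 to 187 TPM, and the overexpression libraries 1 to 5 held 86.6, 47.6, 109, 53.8 and 47.8 TPM. No overexpression library reached the control mean of 125 TPM and 3 of 5 were below every control library, while replicates 1 and 3 lay inside the control range. The control mean was 1.81 times the overexpression mean of 69.0 ± 27.7 TPM (SD, n = 5). The log2 difference of -0.87 ± 0.24 (SE) was larger in size than that of Hes1, with a 95% confidence interval from -1.39 to -0.36. Its adjusted p was 0.0623 in limma, and its exact permutation p was 0.0238. Without control replicate 2 the adjusted p in limma was 0.0277, and without overexpression replicate 3 it was 0.0177. Hes5 shares 756 bases with Gm20421, a noncoding gene on the opposite strand that was at 0.346 TPM in control and 1.06 TPM with overexpression on average. The sources used here do not say whether the quantification used strand.

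Hes6 (ENSMUSG00000067071, chr1:91411483-91414038, minus strand) had the smallest difference of the 3 Hes genes. Its control libraries ran from 88.1 through 96.7 to 124 TPM, and the overexpression libraries 1 to 5 held 134, 94.7, 114, 124 and 96.7 TPM, so the groups overlapped widely. The log2 difference of 0.17 ± 0.13 (SE), with an interval from -0.10 to 0.44 and an adjusted p of 0.706 in limma, was within the spread of the libraries. Hes6 made up 40.003 to 50.3% of the summed Hes and Hey TPM in the overexpression libraries and 32.3 to 40.7% in control.

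Among the Hey genes, Hey1 was the member present at a testable level, and it fell. Hey1 (ENSMUSG00000040289, chr3:8663359-8667256, minus strand) is a Notch-induced repressor that, with Hes genes, holds back neuronal differentiation. Control libraries ran from 18.3 through a median of 18.9 to 28.8 TPM, with 5 of the 6 between 18.3 and 19.7 TPM. The overexpression libraries 1 to 5 held 15.54, 11.2, 14.8, 10.7 and 6.92 TPM, all below the lowest control library. Groups that did not overlap were found for 3.29% of all genes tested (1.99% higher and 1.31% lower). The control mean of 20.6 ± 4.06 TPM (SD, n = 6) was 1.74 times the overexpression mean of 11.8 ± 3.48 TPM (SD, n = 5). The log2 change was -0.78 ± 0.19 (SE; 95% confidence interval -1.18 to -0.37), with an adjusted p of 0.0305 in limma and an exact permutation p of 0.00216, the smallest that 462 arrangements of the group labels allow. The call was lost in limma without control replicate 3, 4 or 6 or overexpression replicate 2, 4 or 5, with adjusted p up to 0.0797, and without overexpression replicates 2 and 5 it was 0.157.

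Hey2 (ENSMUSG00000019789, chr10:30832359-30842801, minus strand) and Heyl (ENSMUSG00000032744, chr4:123233556-123249875, plus strand), the other two Hey genes, were close to 0 in both groups. Hey2 reached at most 0.406 TPM in control and 0.328 TPM with overexpression, although its promoter holds the Rbpj letters. Heyl was above 1 TPM in 2 libraries, control replicate 1 at 1.39 TPM and overexpression replicate 3 at 1.06 TPM. In a fit without a filter, the log2 differences were 0.01 ± 0.10 (SE) for Hey2 and 0.20 ± 0.22 (SE) for Heyl, with adjusted p of 0.989 and 0.754 in limma.

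The sum of the Hes and Hey transcripts was 284 ± 56.4 TPM (SD, n = 6) in control and 252 ± 41.0 TPM (SD, n = 5) with overexpression, with ranges of 220 to 379 and 205 to 300 TPM that overlap. Within that sum the share of Hes1 was 10.3 to 17.9% in control and 16.3 to 30.1% with overexpression, that of Hes5 35.1 to 49.3% and 21.6 to 38.2%, and that of Hey1 5.93 to 8.54% and 3.38 to 5.18%. The Hey1 shares do not overlap between the groups, while the Hes1 and Hes5 shares overlap at 1 end. Shares of one sum are not independent, and these carry no test.

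**Figure D3:**
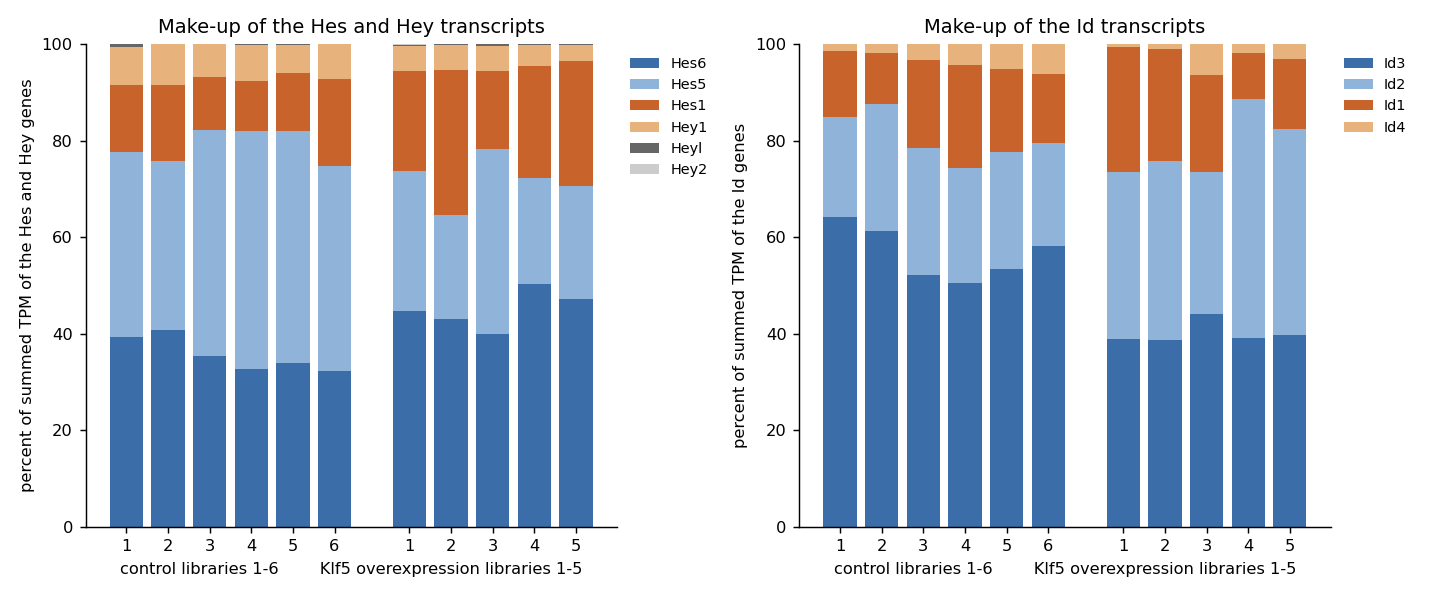
Share in percent (vertical axes) of each gene in the summed TPM of the Hes and Hey genes and of the Id genes, for each of the 11 libraries (horizontal axes). Hes5 takes 35.1 to 49.3% of the Hes and Hey sum in control, and Id2 takes 29.5 to 49.5% of the Id sum with overexpression, above its 20.8 to 26.4% in control.

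Of the Id genes, only Id3 passed the test. Id3 (ENSMUSG00000007872, chr4:136143497-136145755, plus strand), which with Id1 supports the upkeep of neural progenitors, was the most abundant of them in control and fell. Its control libraries ran from 60.7 through a median of 85.4 to 93.4 TPM, and the overexpression libraries 1 to 5 held 43.4, 61.1, 65.7, 62.6 and 47.8 TPM. All 5 lay below the control mean, and 2 lay below every control library; control replicate 5 was the control that reached into the overexpression range. The control mean of 81.4 ± 12.2 TPM (SD, n = 6) was 1.45 times the overexpression mean of 56.1 ± 9.87 TPM (SD, n = 5). The log2 change of -0.53 ± 0.14 (SE; 95% confidence interval -0.84 to -0.23) had an adjusted p of 0.0494 in limma, just inside the threshold, and an exact permutation p of 0.0108. The call held in 2 of the 11 fits that leave out 1 library, without control replicate 5 and without overexpression replicate 3, and in the other 9 its adjusted p was at most 0.12 in limma.

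Id2 (ENSMUSG00000020644, chr12:25093799-25097140, minus strand), which in the embryonic brain is found in progenitors and in young neurons, differed in the other direction from Id3 and did not pass the test. Control libraries ran from 24.1 through a median of 36.5 to 41.8 TPM, and the overexpression libraries 1 to 5 held 38.6, 58.7, 44.1, 79.2 and 51.1 TPM. All 5 lay above the control mean and 4 above every control library. The means were 34.6 ± 7.38 TPM (SD, n = 6) and 54.3 ± 15.8 TPM (SD, n = 5), a ratio of 1.57 that is close to that of Hes1 but with a wider spread. The log2 difference was 0.62 ± 0.19 (SE), with an interval from 0.22 to 1.02, an adjusted p of 0.0941 in limma and an exact permutation p of 0.0152. The adjusted p in limma was 0.0481 without overexpression replicate 1.

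Id1 and Id4 did not differ beyond the spread of the libraries. Id1 (ENSMUSG00000042745, chr2:152736251-152737410, plus strand), a direct target of BMP signalling in many cell types, ran from 15.4 through 21.2 to 37.3 TPM in control, and the overexpression libraries 1 to 5 held 28.7, 36.6, 29.9, 15.4 and 17.5 TPM. Its log2 difference was 0.13 ± 0.25 (SE), with an interval from -0.40 to 0.66 and an adjusted p of 0.931 in limma, and the sign turned without overexpression replicate 2. Id4 (ENSMUSG00000021379, chr13:48261228-48266026, plus strand), which is known for its part in neural progenitor and oligodendrocyte lineage timing, ran from 1.66 through 5.50 to 10.1 TPM in control. Its overexpression libraries 1 to 5 held 0.801, 1.64, 9.55, 2.91 and 3.71 TPM, with replicate 3 far above the other four. The log2 difference was -0.57 ± 0.43 (SE), with an interval from -1.47 to 0.33 and an adjusted p of 0.706 in limma. Both intervals include 0, and that of Id1 reaches a rise as large as that of Hes1, that of Id4 a fall as large as that of Hey1. Id4 also shares sequence with A330033J07Rik and Gm49291 on the opposite strand, which were both listed at 0 in the overexpression libraries.

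The sum of the Id transcripts was 145 ± 25.1 TPM (SD, n = 6) in control and 140 ± 22.5 TPM (SD, n = 5) with overexpression. The Id3 share was 50.6 to 64.1% in control and 38.7 to 44.0% with overexpression, and the Id2 share was 20.8 to 26.4% and 29.5 to 49.5%. Neither pair of ranges overlaps, but shares of one sum are not independent: a lower Id3 share raises the others. The TPM ranges of Id2 and of Id3 overlap between the groups, and the shares carry no test.

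**Figure D4:**
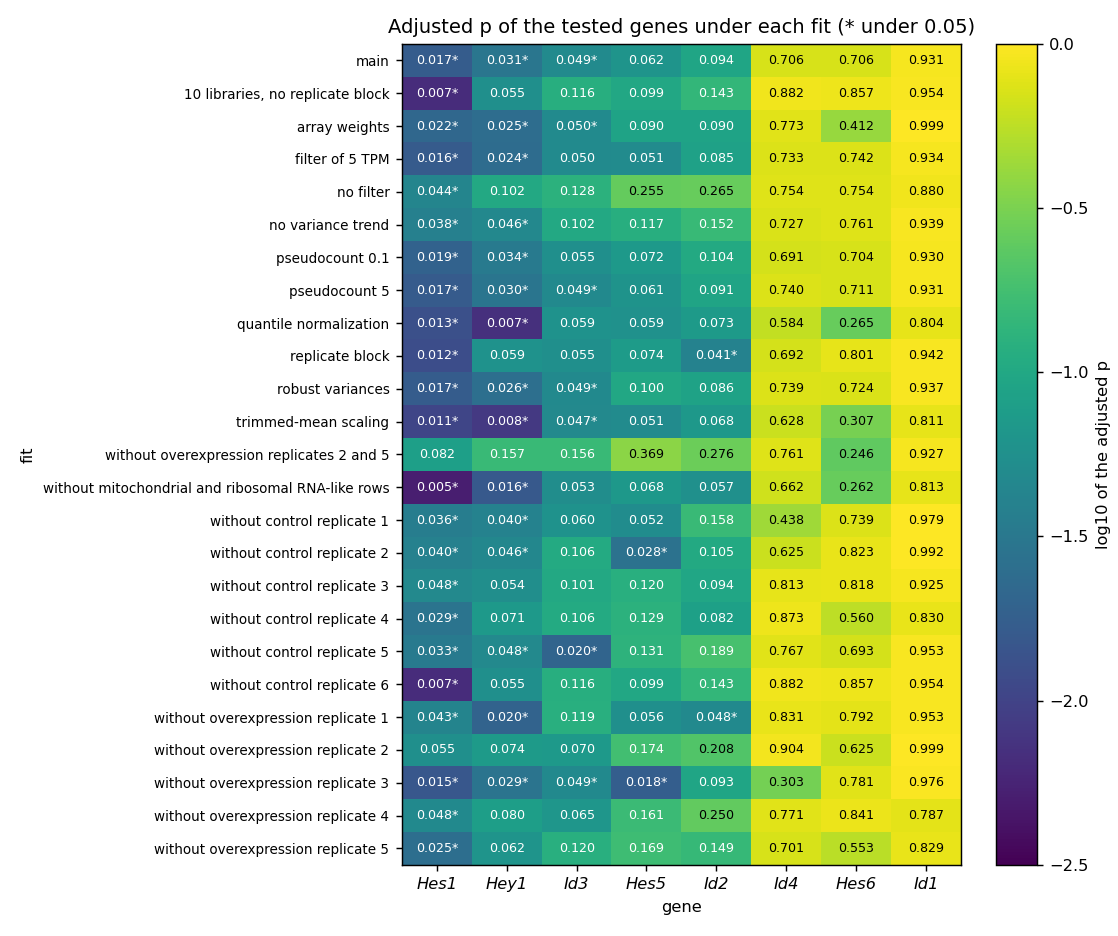
Adjusted p in limma (number in each cell, colour on a log10 scale) of the 8 tested genes (columns) under the fit reported here and 24 others (rows). A star marks a value under 0.05. The row of 10 libraries with no replicate block and the row without control replicate 6 are the same fit. Hes1 keeps its star in all rows but those without overexpression replicate 2 and without overexpression replicates 2 and 5, whereas the stars of Hey1 and Id3 come and go.

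Correlations between members within the groups rest on few libraries, so a pair that did not pass may still vary together. After each group's mean was subtracted from log2(TPM + 1), the 45 pairs of members were correlated over the 11 libraries, and none passed a Benjamini-Hochberg adjusted permutation p of 0.05. Hes5 and Hey1 had a Pearson r of 0.74 (permutation p 0.0199, adjusted 0.291) and a Spearman rho of 0.55 (permutation p 0.0916). Without the 2 libraries farthest from the median of Hes5, their r was 0.54. Hes5 and Hes6 had an r of 0.72 (permutation p 0.0275, adjusted 0.291) and a rho of 0.75 (permutation p 0.0245), and r was 0.72 without the 2 farthest libraries. Over the 11 libraries Hes1 followed no member closely: its r with the other 9 lay between -0.32 and 0.32. In the 6 control libraries alone, without a test, r between members ran from -0.73 (Heyl and Id2) to 0.88 (Hes6 and Hey2). It was 0.86 for Hes5 and Id1, 0.85 for Hes5 and Hes6 and 0.69 for Hes1 and Id4.

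Other genes were closer to the changed members than the members were to each other. Among 9188 genes with a mean of at least 5 TPM, and over the same 11 libraries with group means removed, Krit1 (r = 0.84) and Stx8 (r = 0.82) were most like Hes1. Hilpda (r = 0.95) and Tbl2 (r = 0.95) were most like Hey1, and Nt5c3 (r = 0.90) and Nrbp1 (r = 0.89) were most like Id3. None of these 6 genes passed the test between the groups (adjusted p from 0.394 to 0.972 in limma). They are the highest of many values over few libraries that share one scaling, so they are a description only.

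Upstream of the Hes and Hey genes, the Notch pathway changed in a minority of its members. Of 31 genes on the list, 30 were testable, 2 rose, 4 fell and 24 did not pass, with a median log2 change of -0.02. Over all genes tested, 3.72% passed and 3.29% had groups that did not overlap. Ligands went both ways. Dll3, a ligand that acts inside the cell and dampens Notch signalling, ran from 49.5 through 72.3 to 87.1 TPM in control and held 121, 114, 157, 115 and 130 TPM in overexpression libraries 1 to 5. The groups do not overlap, and the log2 change was 0.86 ± 0.15 (SE; adjusted p = 0.00242 in limma). Jag1, an activating ligand, rose. Its mean was 14.8 ± 3.70 TPM (SD, n = 6) in control and 26.9 ± 6.24 TPM (SD, n = 5) with overexpression, a log2 change of 0.83 ± 0.19 (SE; adjusted p = 0.0223 in limma). Dll4, a ligand best known from vessel sprouting, fell from 3.86 ± 1.86 to 1.14 ± 0.497 TPM, with a log2 change of -1.13 ± 0.27 (SE; adjusted p = 0.028 in limma). Its call was lost without control replicate 1, 2 or 6 or overexpression replicate 2, 4 or 5, and that of Jag1 without control replicate 4 or overexpression replicate 1, 3 or 4.

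The receptor Notch3 and the modifiers Lfng and Dtx4 fell. Notch3 ran from 22.2 through 33.7 to 37.9 TPM in control and held 17.9, 19.9, 17.5, 16.4 and 12.4 TPM in overexpression libraries 1 to 5. The groups do not overlap, and the log2 change was -0.89 ± 0.16 (SE; adjusted p = 0.00314 in limma). Notch3 is also a marker of mural cells, the contractile cells of vessel walls. Of the 10 mural markers, Kcnj8 was at 0 throughout and 5, Kcnj8 included, stayed below 1 TPM in every library, among them Pdgfrb (mean 0.0456 TPM in control) and Rgs5 (mean 0.0141 TPM). The summed level of the list was 65.9 to 94.4 TPM in control and 111 to 174 TPM with overexpression, made up mostly of Notch3 and Cspg4. Cspg4, also an oligodendrocyte precursor gene, averaged 45.7 and 123 TPM, and the part of this list in the fall of Notch3 was not tested. Lfng, a glycosyltransferase that tunes which ligands a Notch receptor answers to, fell from 87.7 ± 9.16 to 54.8 ± 15.9 TPM (log2 change -0.71 ± 0.16, SE; adjusted p = 0.0188 in limma). Without overexpression replicate 2 the Lfng call was lost, at an adjusted p of 0.0543. Dtx4, an E3 ubiquitin ligase of the Deltex family that acts on Notch receptors, fell from 20.6 ± 3.44 to 10.9 ± 3.07 TPM (log2 change -0.88 ± 0.18, SE; adjusted p = 0.00926 in limma).

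The core Notch genes Notch1, Dll1 and Rbpj had like mean levels in both groups. These genes and Nrarp were chosen for mention after their values were seen. Notch1 averaged 56.9 and 60.7 TPM in control and overexpression, Dll1 62.5 and 64.7 TPM, and Rbpj 21.03 and 18.6 TPM. Nrarp, a feedback inhibitor and Notch target, averaged 50.5 and 34.5 TPM, with a log2 difference of -0.50 ± 0.20 (SE) and an adjusted p of 0.248 in limma. All 5 of its overexpression libraries lay below the control mean, as was so for Hes5 and Hey1, but the ranges overlap.

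**Figure D5:**
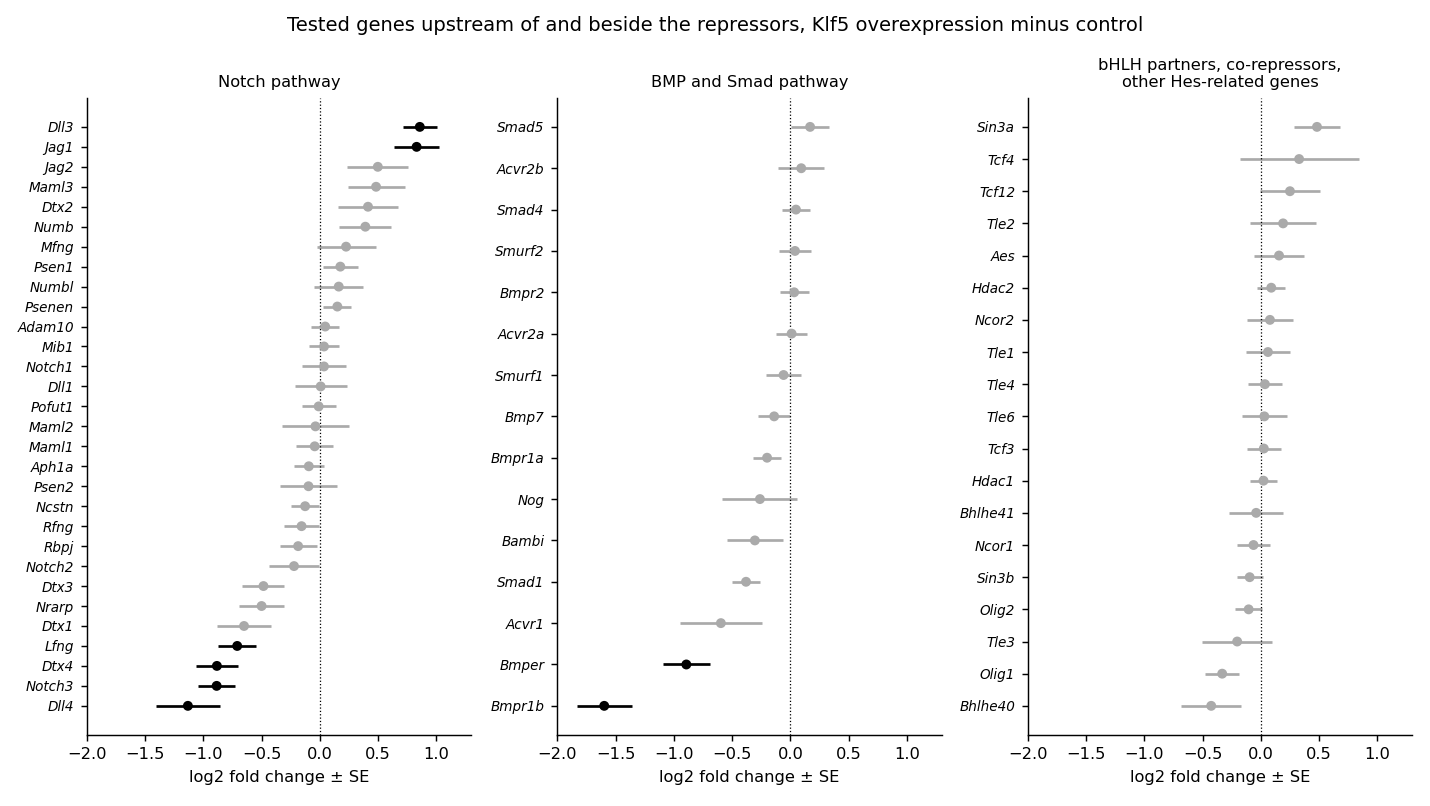
Change of log2(TPM + 1) with its SE (horizontal axes) for the tested genes of the Notch list, of the BMP and Smad list, and of the lists of bHLH partners, co-repressors and other Hes-related genes (1 tested gene is left out of the third panel); black marks an adjusted p under 0.05 in limma. Dll3 and Jag1 lie to the right and Lfng, Dtx4, Notch3, Dll4, Bmper and Bmpr1b to the left, and in the third panel no gene is black.

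Upstream of the Id genes, the BMP and Smad list held 25 genes, of which 15 were testable, 0 rose, 2 fell and 13 did not pass. Its median log2 change was -0.14. Among all genes tested, 3.72% passed and 3.29% had groups that did not overlap. Bmpr1b, a type I BMP receptor, ran from 13.0 through 18.5 to 27.8 TPM in control and held 8.41, 4.05, 8.68, 4.86 and 3.55 TPM in overexpression libraries 1 to 5. The control mean was 3.29 times the overexpression mean, the groups do not overlap, and the log2 change was -1.60 ± 0.24 (SE; adjusted p = 0.000689 in limma). Bmper, a secreted protein that binds BMPs, fell from 9.40 ± 1.97 to 4.65 ± 1.43 TPM (log2 change -0.89 ± 0.20, SE; adjusted p = 0.018 in limma). Without control replicate 3 or overexpression replicate 4 the Bmper call was lost, at an adjusted p of up to 0.058.

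None of the tested partners and co-repressors through which these proteins act passed the same test, which 3.72% of all genes tested passed. Of 18 E proteins and neural bHLH activators, 6 were testable and 0 passed in limma, with 1 at an unadjusted p under 0.05. That gene was Olig1, an oligodendrocyte lineage activator, with 1375 ± 299 TPM in control and 1075 ± 81.8 TPM with overexpression (adjusted p = 0.33 in limma). Tcf12, an E protein, averaged 95.9 and 116 TPM (adjusted p = 0.835 in limma). The 12 untested genes of this list, which include the neuronal activators Neurog1 and Neurog2, reached at most 0.534 TPM in any library. All 12 Groucho and other co-repressor genes were testable and 0 passed in limma, with 1 at an unadjusted p under 0.05. Sin3a, a scaffold of histone deacetylase complexes, averaged 22.01 and 30.5 TPM (adjusted p = 0.291 in limma), and its relative Sin3b averaged 99.9 and 93.1 TPM (adjusted p = 0.856). Of 6 other Hes-related genes, 2 were testable and 0 passed in limma, also at an unadjusted p under 0.05. These were Bhlhe40 at 23.6 and 16.3 TPM (adjusted p = 0.594) and Bhlhe41 at 1.39 and 1.29 TPM (adjusted p = 0.986), both repressors of the circadian system.

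Among 7 genes described as repressed by Hes1, 5 were testable, 1 rose and 0 fell. The shares over all genes tested were 3.72% that passed and 3.29% with groups that did not overlap. The gene that rose was Cdkn1a, which codes for the cell cycle inhibitor p21: its control libraries ran from 74.5 through 144 to 199 TPM, and the overexpression libraries 1 to 5 held 379, 299, 203, 269 and 256 TPM. The groups do not overlap, and the log2 change was 1.04 ± 0.23 (SE; adjusted p = 0.0166 in limma). Without overexpression replicate 1 the adjusted p was 0.0517 in limma. Gadd45g, a growth arrest gene, averaged 27.3 and 31.4 TPM (adjusted p = 0.883 in limma).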

How the data were processed

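The authors deposited 1 table of TPM per gene and library, and no counts. The submitters' processing notes name HISAT2, StringTie, HTSeq, DESeq2 and the build GRCm38.p5, without versions or roles, and no source used here gives the strand setting. TPM keeps no depth, so precision rests on the spread between libraries, and a large change in abundant transcripts moves all other values. The RNA was total RNA, and which of the 2 library kits named in the protocol made which library is not given. Library columns were matched to samples by the library number in the labels.

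Symbols were matched for 53255 rows, Tle5 under the older symbol Aes. Coordinates are those of GENCODE M21. Genes that reached 1 TPM or more in 5 or more libraries (13549) were tested as log2(TPM + 1), a pseudocount of 1 that understates changes of low genes, with limma 3.58.1 (R 4.3.3), a mean-dependent variance and a two-sided test without covariates. The threshold was an adjusted p of 0.05. Exact permutation tests ran over all 462 arrangements of the group labels on log2(TPM + 1), and pairs of members were tested with 100000 permutations within groups. Numerical work used Python 3.11.15, numpy 2.4.6, scipy 1.17.1 and pandas 2.3.3. On simulated data for this comparison (13217 genes), 71% of genes changed by a log2 of 1 and 87% of those changed by 2 were recovered, with 9 false calls.

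The members and lists were chosen with earlier results of these data known. Named genes are the 10 members, Klf5, the members of each list that passed (at most 6, or the 2 with the smallest p where fewer than 2 passed) and, for each changed member, the 2 genes most like it. Other genes, such as Notch1, Dll1, Rbpj, Nrarp and the cell type markers, were named after their values were seen. Alternatives were other pseudocounts (0.1 and 5), filters (none and 5 TPM), scalings, variance models, library weights, a replicate block and the omission of each library. An alternative without overexpression replicates 2 and 5, whose listed totals were lowest, was added after the data were seen. The values of 1 listed gene are left out of the text and figures.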

Additional observations from a re-analysis of the deposited data

Results flagged for a closer look

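In 20 groups of values (10 genes in each of the 2 groups), a sample far from the others was looked for, and chance alone flags about 1 group in 20. Hey1 in control replicate 4 stood at 28.8 TPM, while the other 5 control libraries were between 18.3 and 19.7 TPM. Without that library the log2 change of Hey1 was -0.68, with an adjusted p of 0.0711 in limma. Heyl in control replicate 1 stood at 1.39 TPM, while the other 5 control libraries were between 0 and 0.279 TPM.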

How the results depend on the processing

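Of the 10 genes, 3 changed in the fit reported. With each library left out in turn the count ran from 0 to 4: it was 0 without overexpression replicate 2 and 4 without overexpression replicate 3. It was 1 (Hes1) without a filter, and 0 without overexpression replicates 2 and 5. In 10 libraries without the replicate block, the same fit as that without control replicate 6, it was 1 (Hes1). In both fits with a count of 0, 5 members had an unadjusted p under 0.05 in limma, and Hes1, Hey1, Id2 and Id3 were among them. The median change of all genes moved by 0.13 (log2) without overexpression replicates 2 and 5, and the genes called there were 272 higher and 70 lower, against 310 and 194. Left-out libraries gave 353 to 492 changed genes and the other settings 342 to 732, against 504. The sign of Id1 turned with array weights (-0.0058, log2) and without overexpression replicate 2 (-0.0111); over the left-out libraries its log2 difference ran from -0.0111 to 0.289. Id3 kept its call in 4 of 13 other fits, those with array weights, a pseudocount of 5, robust variances or trimmed-mean scaling. Without a filter, where more genes were tested, Hey1 had an adjusted p of 0.102, and the calls of Jag1, Lfng, Bmper, Dll4 and Cdkn1a were also lost. Without overexpression replicates 2 and 5 those of Dtx4, Lfng, Bmper, Dll4 and Cdkn1a were lost. The causes were not tested.

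The sources used here do not say whether the replicate numbers pair the libraries. Same-numbered libraries correlated at -0.04 to 0.30 in their deviations from the group means. Of 5 pairs 1 exceeded 0.1, that of replicate 1. Low correlations cannot exclude a pairing. With the replicate number as a block (10 libraries), 426 genes changed. Among the members these were 2, Hes1 (adjusted p 0.0122 in limma) and Id2 (0.041), while Hey1 (0.0593), Id3 (0.0553), Bmper (0.0541) and Dll4 (0.0573) did not pass. Depth is unknown, so whether it limits Hey2, Heyl and Id4 was not tested.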

Other observations

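Ratios between members within a library do not depend on how a library was scaled; these pairs were chosen after their values were seen and carry no test. Hes1 was 1.35 to 2.48 times Hey1 in the 6 control libraries and 3.14 to 7.68 times Hey1 in the 5 overexpression libraries. Id2 was 0.324 to 0.503 times Id3 in control and 0.671 to 1.27 times Id3 with overexpression. Both pairs of ranges are apart. Hes1 was 0.208 to 0.448 times Hes5 in control and 0.426 to 1.39 times Hes5 with overexpression, which overlap at overexpression replicate 3. The genes that differed in the same direction kept ratios that overlapped throughout: Hes5 was 4.11 to 8.08 times Hey1 in control and 4.26 to 7.37 times with overexpression, and Id2 was 0.705 to 1.34 and 0.618 to 1.38 times Hes1.

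All 9 testable neuron markers had a log2 difference below 0, with a median of -0.42, although none passed the test at an adjusted p of 0.05 in limma (4 had an unadjusted p under 0.05). Their summed level overlapped between the groups.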
